A study of Mus musculus with 14 samples.

Results

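The 10 genes described here are the Notch receptors *Notch1*, *Notch2* and *Notch3*, the Notch ligands *Dll1*, *Dll4* and *Jag1*, the Notch effectors *Rbpj* and *Hes1*, and the secretory fate factors *Atoh1* and *Gfi1*. They were chosen by gene symbol for their known roles, with earlier results of these data known. All 10 were among the 55889 genes counted in the mice without DSS and the 54721 genes counted in the mice after DSS. Notch signalling passes between cells that touch. A ligand on the surface of a cell binds a receptor on its neighbour, the receptor is cut, and its freed inner part joins the DNA-binding protein *Rbpj* and switches on target genes such as *Hes1*. In intestinal crypts, *Hes1* represses *Atoh1*, and crypt cells that keep *Atoh1* become secretory cells (goblet and enteroendocrine cells among them), make the ligands *Dll1* and *Dll4* and hold their neighbours in the absorptive or stem state. *Gfi1* acts downstream of *Atoh1* in goblet and Paneth cells.

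Gut RNA of 14 C57BL/6N mice was sequenced, 4 WT and 4 miR-29ab1-/- (KO) mice without DSS, and 3 WT and 3 KO mice after DSS. The KO is a germline deletion, present in all cells, of the cluster that encodes miR-29a and miR-29b-1. Dextran sulfate sodium (DSS), given in drinking water, injures the colon epithelium. The labels give no treatment for the mice without DSS, and no age for any group. The paper states an age range for its mice in general, and describes them as littermates matched in age and sex unless noted. It gives 3 days of DSS before the RNA sequencing. The paper's text has mice of both sexes in the study, and it does not tie a sex to a library. The comparison of the genotypes asks how the levels of these genes differ in the absence of miR-29a and miR-29b-1. The mice with and without DSS were deposited as separate tables, so that DSS and the experiment cannot be told apart. The DSS mice are numbered here as in the table's columns.

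The library totals were 17177177 to 18185020 reads on genes in WT mice, 14231157 to 16100607 in KO mice, 20506610 to 22990024 in WT mice after DSS and 20076719 to 23153149 in KO mice after DSS. Every WT library without DSS was larger than every KO library. Levels are in CPM (read counts scaled to a common library size), scaled by the TMM method within each table, and 3 reads, taken as the floor, were 0.125 to 0.215 CPM, which covers counting error only. The labels name the tissue as small intestinal crypts and the paper names colon. Summed over a list in each mouse, 9 genes of absorptive cells, not all particular to colon, gave 3256 to 9957 CPM. The 10 genes of the small intestine gave 20.3 to 60.6 CPM, with up to 3 of the 10 at 0 reads. The libraries were epithelial for the most part, with 10499 to 22013 CPM over 8 epithelial genes, 1.88 to 9.36 CPM over 11 endothelial genes and 44.3 to 230 CPM over 10 leukocyte genes. In bulk RNA such as this, fewer cells of a type and less RNA per cell cannot be told apart. The library of KO mouse 2 after DSS stood apart, with 20.2% of its reads on mitochondrial genes, against 14.8% and 7.43% in the other KO mice after DSS and 5.71% to 13.9% in the remaining 11 mice.

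The miRNAs that the deletion removes share their seed with another member of the family, which is encoded elsewhere. The mature sequences (RefSeq, GRCm38.p6) are shown to make this plain, with the seed, bases 2 to 8, in capitals. The first comes from chr6:31062673-31062694 on the reverse strand, the second from chr6:31063025-31063047 on the reverse strand and, with the same letters, from the copy on chromosome 1 at chr1:195037091-195037113, and the third from chr1:195037600-195037621 on the forward strand.
miR-29a-3p: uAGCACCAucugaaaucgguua
miR-29b-3p: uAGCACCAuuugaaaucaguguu
miR-29c-3p: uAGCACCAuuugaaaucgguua
The seed AGCACCA was the same in all 3, so a site for one is a site for each. Sites are stretches of a 3′ UTR that pair with the seed, here TGGTGCT on the transcript's strand. Of the 10 genes, 1 held such a site in a 3′ UTR annotated in GENCODE vM21. This was *Rbpj*, at chr5:53656563-53656569 on the forward strand of GRCm38, in 4 of its transcripts. The site is shown within 30 bases, with the pairing letters in capitals.
*Rbpj* 3′ UTR: tcttttctgtgTGGTGCTggggtcaaatcc
Over all 21020 genes with a 3′ UTR, 13.8% held at least 1 such site. The longer site TGGTGCTA was in 0 of the 10 genes and in 2.99% of all genes. A match describes the letters only.

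The long-RNA libraries could not measure the deleted hairpins, with 0 reads on *Mir29a* in all 14 mice and 0 or 1 on *Mir29b-1*. The neighbouring noncoding genes separated the labels. *Lncpint* had 6 to 23 reads a mouse in WT and 706 to 2889 in KO, and *Gm27019* had 0 to 2 and 151 to 411.

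Per kilobase of gene length, the 10 genes covered a wide range of levels and had nearly the same order in each genotype. *Atoh1* was the highest in WT mice without DSS (67.2 ± 4.92 CPM per kilobase, SD, n = 4). *Hes1* followed at 36.4 ± 6.71 CPM per kilobase, with no overlap between the mice of the pair. *Gfi1* came next, at 11.1 ± 3.10 CPM per kilobase. The ligands and *Notch1* then lay close together, with *Dll4* at 5.87, *Dll1* at 4.42, *Jag1* at 4.14 and *Notch1* at 3.58 CPM per kilobase, and each neighbouring pair of this run overlapped between mice. *Notch1* also overlapped with *Rbpj* at 2.71 CPM per kilobase. *Notch2* and *Notch3* were last, at 1.12 and 0.1001 CPM per kilobase, and stood apart from each other and from *Rbpj*. In KO mice the order was the same. After DSS the order in WT mice kept *Atoh1* (31.7 ± 0.49 CPM per kilobase, SD, n = 3) above *Hes1* (26.9 ± 4.26), and the mice of the pair did not overlap. In KO mice after DSS, *Hes1* at 26.7 ± 0.634 CPM per kilobase came before *Atoh1* at 24.1 ± 4.09, and the mice of the pair overlapped.

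**Figure D1:**
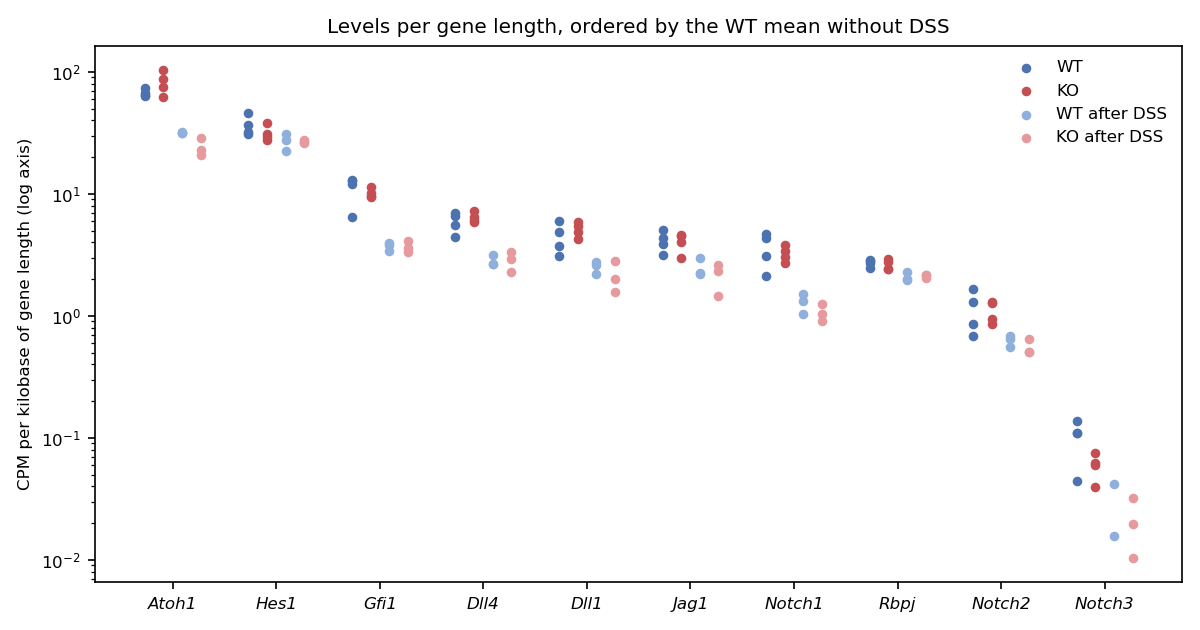
Level of each gene in each mouse, as CPM per kilobase of gene length on a log axis, with the genes in the order of their WT means without DSS and 1 point a mouse in 4 groups. Levels run from *Atoh1* at the top to *Notch3* at the bottom, the mouse with 0 reads of *Notch3* is not drawn, and the tables with and without DSS were scaled separately.

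Without DSS, none of the 10 genes differed between KO and WT mice at an adjusted p under 0.05 (edgeR's quasi-likelihood test, Benjamini-Hochberg adjustment over 15441 genes). At an unadjusted p under 0.05 the count was also 0 of 10, and DESeq2 gave 0 at both thresholds. With no filter on low counts it was 1, *Atoh1*, with an unadjusted p of 0.0347 and an adjusted p of 0.902 (edgeR). It was also 1 without WT mouse 2 (*Notch3*, unadjusted p of 0.0298), WT mouse 4 (*Gfi1*, 0.0140), KO mouse 1 (*Hes1*, 0.0477) or KO mouse 4 (*Atoh1*, 0.00943), each with an adjusted p of 1.00 (edgeR). Over all genes tested, 0.0194% passed the adjusted threshold and 3.67% the unadjusted one. The 3 genes that passed were *Lncpint*, *Gm27019* and an unnamed transcript, all at or beside the deleted locus on chromosome 6. Of the 10 genes, 3 were higher and 7 lower in KO mice, with a median log2 fold change of -0.04, beside -0.00 over all genes, of which 50.5% were lower. In each of the 10 genes the KO and WT mice overlapped, and over all genes 2.03% did not overlap.

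Of the receptors, *Notch1*, the main receptor of the crypt epithelium together with *Notch2*, was at 61.8, 44.4, 67.0 and 30.4 CPM in WT mice and 38.9, 43.4, 48.2 and 54.2 CPM in KO mice. All 4 KO mice lay within the WT range, and the log2 fold change was -0.14, with an interval of 2 standard errors from -0.60 to 0.32. *Notch2* was at 17.8, 9.30, 13.98 and 7.35 CPM in WT mice and 9.20, 10.2, 13.8 and 14.1 CPM in KO mice, a log2 fold change of -0.03 (-0.58 to 0.51). WT mice 1 and 3 were the highest of their group for both receptors and KO mice 3 and 4 the highest of theirs. The leukocyte genes, 10 in all, summed to 178, 62.7, 90.5 and 53.0 CPM in WT mice and 58.4, 60.4, 100 and 230 CPM in KO mice, and were thus highest in the same mice, and the part of leukocytes in the receptor levels was not tested. *Notch3*, a receptor best known from vessel walls, was close to the floor with 20, 6, 16 and 16 reads in WT mice and 9, 8, 5 and 7 reads in KO mice. Its log2 fold change of -0.76 had an interval from -1.61 to 0.09.

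Among the ligands, *Dll1*, a ligand of secretory progenitors, was at 20.6, 13.001, 25.3 and 15.7 CPM in WT mice and 23.2, 17.8, 24.7 and 20.6 CPM in KO mice. The log2 fold change was 0.21 (-0.19 to 0.61). *Dll4*, its partner in crypts and also a ligand of endothelium, was at 26.7, 16.9, 25.5 and 21.3 CPM in WT mice and 24.9, 28.1, 23.6 and 22.7 CPM in KO mice, a log2 fold change of 0.13 (-0.16 to 0.43). The KO mice were the tighter group for both. *Jag1*, a ligand of the other structural family, ranged from 18.4 to 29.6 CPM across WT mice and from 17.3 to 26.9 CPM across KO mice, a log2 fold change of -0.03 (-0.38 to 0.31). Of the 11 endothelial genes, 0 to 4 were at 0 reads in a mouse, while *Pecam1* ranged from 2.03 to 3.50 CPM across WT mice and from 1.49 to 3.30 CPM across KO mice, and the part of endothelium in the ligand levels was not tested.

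Of the effectors, *Rbpj*, the DNA-binding partner of the cut receptor and the gene with the miR-29 site shown above, was at 36.5, 31.4, 34.8 and 35.6 CPM in WT mice and 30.6, 30.8, 35.0 and 37.4 CPM in KO mice. Its log2 fold change of -0.05 had the narrowest interval of the 10 genes, from -0.25 to 0.15. *Hes1*, the repressor that Notch switches on, was at 75.3, 65.0, 63.1 and 92.9 CPM in WT mice and 77.1, 62.7, 60.1 and 56.1 CPM in KO mice. WT mouse 4 was the highest and KO mouse 4 the lowest, and the log2 fold change of -0.21 had an interval from -0.49 to 0.07.

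*Atoh1*, the transcription factor that commits crypt cells to the secretory lineage, was at 141, 134, 157 and 137 CPM in WT mice and 220, 184, 160 and 132 CPM in KO mice. KO mice 1, 2 and 3 lay above all WT mice and KO mouse 4 below them. The means were 142 ± 10.4 and 174 ± 37.2 CPM (SD, n = 4 each), and the log2 fold change of 0.29 ± 0.14 (SE), with an interval from 0.00 to 0.57, did not pass the adjusted threshold (unadjusted p = 0.0697, adjusted p = 1.00, edgeR). The two-sided exact permutation test gave p = 0.200, where 0.0286 is the smallest p that 4 against 4 mice allow. Without KO mouse 1 the log2 fold change was 0.15, and without KO mouse 4 it was 0.40. *Gfi1*, which holds secretory cells away from the enteroendocrine fate, was at 41.1, 40.9, 38.5 and 20.6 CPM in WT mice and 32.5, 30.7, 36.6 and 29.8 CPM in KO mice. WT mouse 4 was below all KO mice and the other WT mice above them, and the log2 fold change was -0.12 (-0.52 to 0.27). Without WT mouse 4 it was -0.31, with an unadjusted p of 0.0140 and an adjusted p of 1.00 (edgeR), and without WT mouse 1 it was -0.03.

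**Figure D2:**
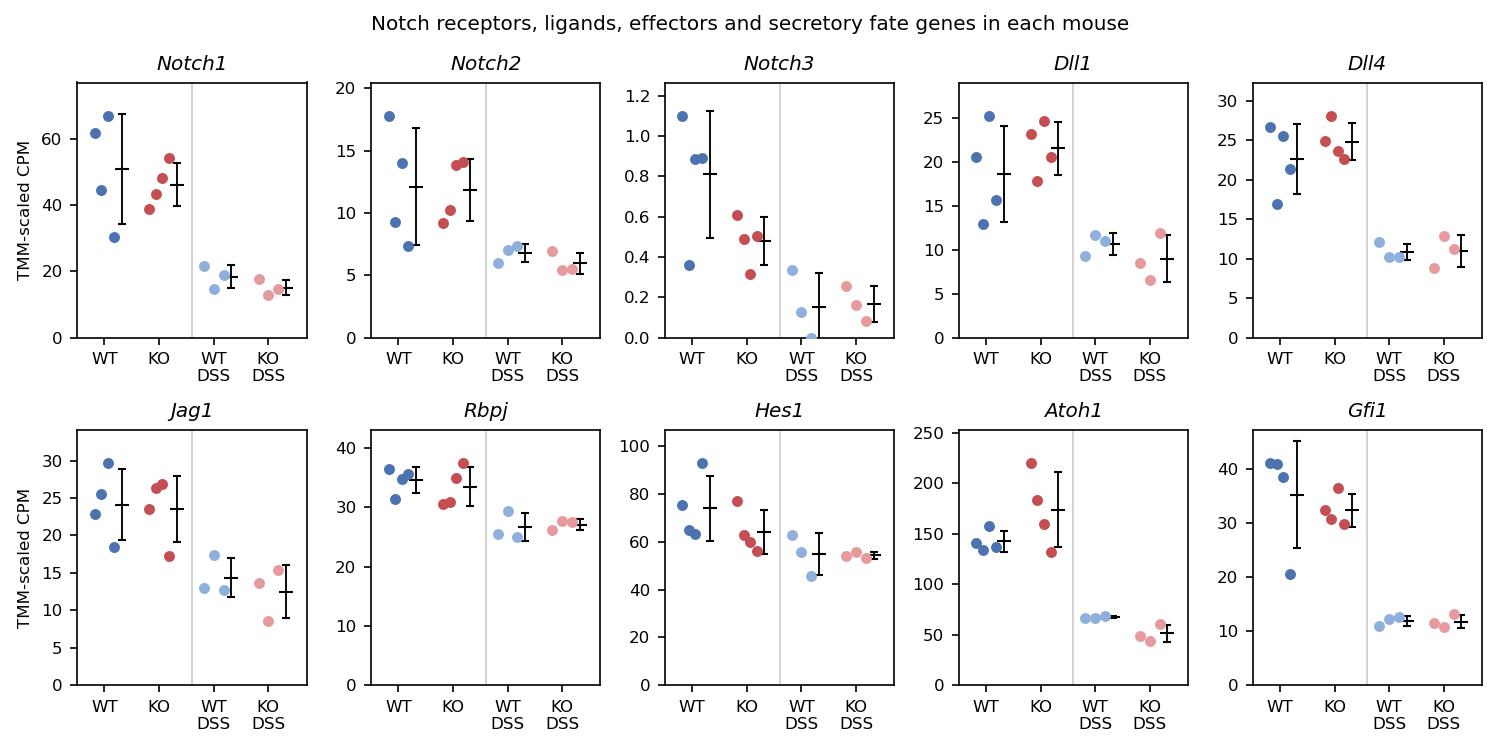
Level of each of the 10 genes in each mouse in TMM-scaled CPM, 1 panel a gene with its own axis from 0, with the mean and SD of each group beside its points. KO and WT mice overlap in all panels without DSS, and the *Atoh1* panel alone shows every KO mouse below all WT mice after DSS. The groups with and without DSS, divided by a line, were scaled separately.

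After DSS, *Atoh1* was the gene of the 10 with the largest difference relative to its error, and it was lower in KO mice. It was at 66.6, 66.7 and 68.5 CPM in the 3 WT mice and 48.9, 43.7 and 60.7 CPM in the 3 KO mice. All 3 KO mice were below all 3 WT mice, and over all genes 11.6% did not overlap. The means were 67.3 ± 1.05 and 51.1 ± 8.68 CPM (SD, n = 3 each). The log2 fold change was -0.39 ± 0.12 (SE), with an interval of 2 standard errors from -0.64 to -0.15. Its unadjusted p was 0.0110 and ranked 221 of 14908 genes, and its adjusted p of 0.646 did not pass (edgeR). The exact permutation test gave p = 0.1, the smallest that 3 against 3 mice allow. The KO mice with the lower values, 1 and 2, also had the larger mitochondrial shares, 14.8% and 20.2%, against 7.43% in KO mouse 3. With the mitochondrial genes left out, the log2 fold change was -0.39 and the unadjusted p 0.0107 (edgeR). Leaving these genes out cannot remove other differences between the libraries, and their part in the *Atoh1* values was not tested. Without KO mouse 2 the log2 fold change was -0.29 with an unadjusted p of 0.0442, and without KO mouse 3 it was -0.54 with an adjusted p of 0.0628 (edgeR).

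Among the 9 of the 10 genes with enough reads to be tested after DSS, 0 passed the adjusted threshold and 1, *Atoh1*, passed the unadjusted one, with edgeR and with DESeq2. Over all 14908 genes, 0.0134% passed the adjusted threshold (*Lncpint* and *Gm27019*) and 7.23% the unadjusted one. In direction, 2 of the 9 were higher and 7 lower in KO mice. The median log2 fold change was -0.18, beside -0.01 over all genes, of which 51.0% were lower.

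The other members overlapped between the genotypes after DSS. *Notch1* was at 21.7, 14.6 and 18.7 CPM in WT mice and 17.7, 12.99 and 14.7 CPM in KO mice, a log2 fold change of -0.28 (-0.64 to 0.07). *Notch2* was at 5.94, 6.99 and 7.35 CPM in WT mice and 6.95, 5.41 and 5.50 CPM in KO mice, a log2 fold change of -0.18 (-0.58 to 0.21). For both receptors a KO mouse was the lowest of the 6 and a WT mouse the highest. Without KO mouse 2 the log2 fold changes were -0.18 for *Notch1* and -0.12 for *Notch2*, and without WT mouse 2 that of *Notch1* was -0.43 with an unadjusted p of 0.0402 (edgeR). *Notch3* had 8, 3 and 0 reads in WT mice and 5, 3 and 2 reads in KO mice, too few for the test, and a difference was not detectable at this depth.

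*Dll1* was at 9.25, 11.7 and 10.96 CPM in WT mice and 8.49, 6.58 and 11.9 CPM in KO mice after DSS, a log2 fold change of -0.24 (-0.69 to 0.22). KO mouse 3 was the highest of the 6 and KO mouse 2 the lowest. Without KO mouse 2 the log2 fold change was -0.06, and without KO mouse 3 it was -0.50 with an unadjusted p of 0.0396 (edgeR). *Jag1* was also lowest in KO mouse 2, with 12.98, 17.4 and 12.7 CPM in WT mice and 13.6, 8.54 and 15.3 CPM in KO mice. Its log2 fold change was -0.20 (-0.66 to 0.26), and 0.01 without KO mouse 2. *Dll4* was at 12.1, 10.3 and 10.2 CPM in WT mice and 8.85, 12.8 and 11.2 CPM in KO mice, a log2 fold change of 0.01 (-0.34 to 0.36).

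Of the effectors, *Rbpj* was at 25.5, 29.3 and 25.1 CPM in WT mice and 26.1, 27.7 and 27.4 CPM in KO mice after DSS. Its log2 fold change was 0.03 (-0.19 to 0.24), so that the gene with the miR-29 site differed by less than the spread between mice in both experiments. *Hes1* was at 63.0, 55.9 and 45.7 CPM in WT mice and 54.0, 55.7 and 53.2 CPM in KO mice, a log2 fold change of -0.02 (-0.26 to 0.23). The *Hes1* levels of the KO mice lay inside the WT range. *Gfi1* was at 10.8, 12.2 and 12.7 CPM in WT mice and 11.4, 10.7 and 13.1 CPM in KO mice, a log2 fold change of -0.02 (-0.31 to 0.28). The secretory fate factors thus had different values after DSS, with an interval below 0 for *Atoh1* and an interval across 0 for *Gfi1*, and the difference between these genes was not tested.

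**Figure D3:**
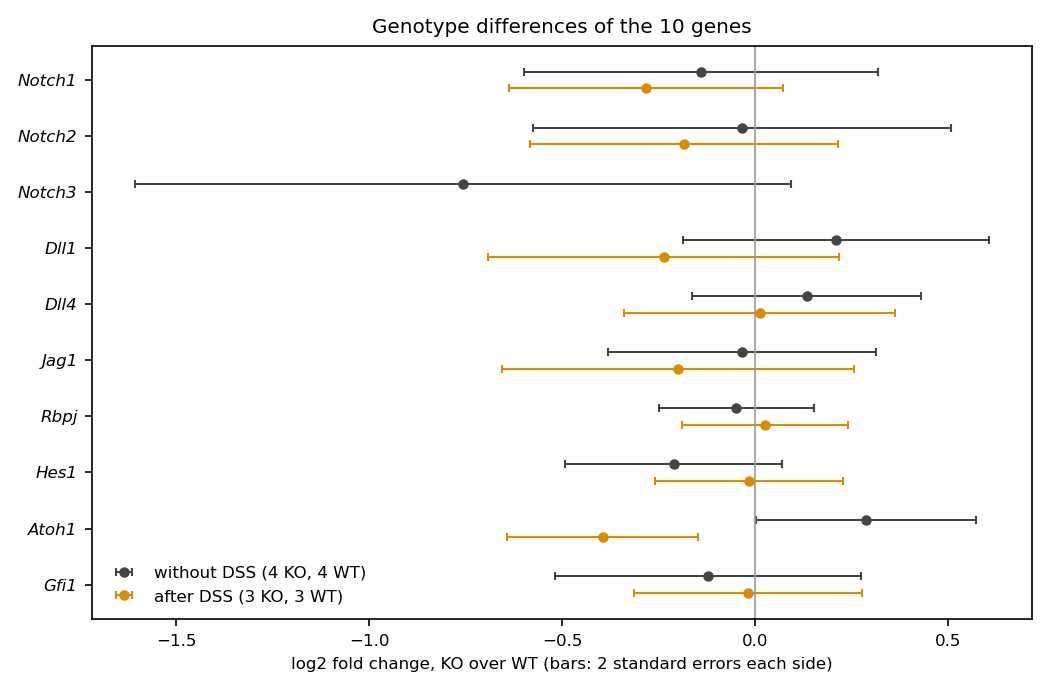
Log2 fold change of KO over WT mice for each gene, without DSS (4 mice a group) and after DSS (3 mice a group), with bars of 2 standard errors each side. *Atoh1* lies at 0.29 without DSS and at -0.39 after DSS, *Notch3* has no value after DSS, and the bars of the other genes after DSS cross 0.

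The genotype difference in *Atoh1* had opposite signs in the experiments, and the difference between them was tested as an interaction in a model of all 14 mice. The interaction was -0.68 ± 0.21 on the log2 scale (SE), with an interval from -1.10 to -0.26. Its unadjusted p was 0.00515, rank 37 of 16370 genes, and its adjusted p of 0.987 did not pass (edgeR). Leaving out each mouse in turn gave -0.83 to -0.55, with adjusted p between 0.286 and 1.00 (edgeR). KO mouse 3 after DSS gave the largest size when left out and KO mouse 1 without DSS the smallest. The interactions of the other 9 genes had intervals across 0. *Dll1* had the next smallest p, with an interaction of -0.45 (-1.07 to 0.18). Those of *Notch1*, *Notch2*, *Dll4* and *Jag1* lay between -0.16 and -0.12 and those of *Rbpj*, *Gfi1* and *Hes1* between 0.08 and 0.20. *Notch3*, with few reads, was at 0.81 (-1.21 to 2.82). In all, 0 of the 10 genes passed the adjusted threshold and 1 the unadjusted one, with edgeR and with DESeq2, where 0% and 4.03% of all genes did with edgeR.

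Beside these 10 genes, 62 other genes of the Notch pathway were listed. They include other receptors and ligands, enzymes that add sugars to the receptor, factors that take up ligands, the sheddases and γ-secretase that cut the receptor, coactivators, corepressors, factors of receptor turnover and other targets. Without DSS, 56 had enough reads, 33 were higher and 23 lower in KO mice, and 0 passed even the unadjusted threshold (edgeR). Their median log2 fold change was 0.03. After DSS, 24 of 56 were higher and 32 lower, and 3 higher and 4 lower genes passed the unadjusted threshold, while 0 passed the adjusted one (edgeR). The median was -0.03. The 7 are 12.5% of the list, beside 7.23% of all genes. This list too was chosen with earlier results of these data known, so its larger share adds no support.

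*Hes6*, a relative of *Hes1* that is known to oppose it, was at 68.6, 53.5 and 56.9 CPM in WT mice and 38.7, 40.2 and 50.6 CPM in KO mice after DSS, a log2 fold change of -0.47 with an unadjusted p of 0.00782 (edgeR). The genotypes did not overlap in this gene, which was named for its small p, and over all genes 11.6% did not overlap. The coactivator *Kat2a*, a histone acetyltransferase, had a log2 fold change of -0.35 with an unadjusted p of 0.0164 (edgeR). *Mfng*, which adds sugars to Notch receptors, and *Dtx1*, a Notch-binding factor known from B cells, had positive log2 fold changes of 1.17 and 1.13. Their CPM were highest in KO mouse 1 (2.78 for *Mfng* and 23.3 for *Dtx1*), where the leukocyte sum was also the highest after DSS. The leukocyte sums were 46.5, 44.3 and 83.6 CPM in WT mice and 141, 97.4 and 58.4 CPM in KO mice after DSS, and their part in these values was not tested.

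Further along the secretory lineage, 18 other regulators were listed. Without DSS, 9 were higher and 9 lower in KO mice, and 1 of the 18 passed the unadjusted threshold, beside 3.67% of all genes. This was the tuft cell factor *Gfi1b*, which ranged from 0.610 to 1.13 CPM across WT mice and from 1.33 to 2.29 CPM across KO mice (log2 fold change 1.06, unadjusted p = 0.0103, adjusted p = 1.00, edgeR). Its levels were low, where 3 reads were 0.165 to 0.215 CPM. The genotypes did not overlap in this gene, which was named for its small p, and over all genes 2.03% did not overlap. After DSS, 16 of the 17 tested were lower in KO mice, with a median log2 fold change of -0.21. Genes of crypt stem cells and leukocytes are given beside them, and 0 of these passed the adjusted threshold. All 6 crypt stem genes tested were lower, with a median of -1.16 and 1 (*Ascl2*, at -2.42) past the unadjusted threshold, and all 8 leukocyte genes tested were higher, with a median of 0.55 and 0 past it (edgeR). The part of these cells in the values of the regulators was not tested. At the unadjusted threshold 4 of the 17 (23.5%) were lower and 0 higher, and 0 passed the adjusted one (edgeR). Of all 14908 genes, 485 were lower and 593 higher at the unadjusted threshold, 7.23% in either direction. The list was chosen with earlier results of these data known, so its larger share adds no support. The count of lower regulators was 12 without KO mouse 2, 13 without WT mouse 1 or 3 and at most 16 on leaving out any mouse. *Foxa3*, a forkhead factor of goblet cells, was at 56.9, 48.6 and 54.3 CPM in WT mice and 36.5, 36.4 and 42.8 CPM in KO mice (log2 fold change -0.46, unadjusted p = 0.00203, edgeR). *Creb3l1*, a factor of the secretory apparatus, was at 214, 192 and 167 CPM in WT mice and 144, 112 and 152 CPM in KO mice (-0.49). *Sox4*, a factor of secretory and tuft progenitors, was at 12.4, 10.1 and 9.25 CPM in WT mice and 3.91, 7.37 and 6.87 CPM in KO mice (-0.81). The genotypes did not overlap in any of these 3 genes, and over all genes 11.6% did not overlap. The 3 were named for their small p in the same mice, so the lack of overlap adds no support.

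Among the products of secretory cells, 0 passed the adjusted threshold in either comparison of the genotypes (edgeR). Without DSS, the enteroendocrine granule genes *Chga* and *Chgb* had the smallest p of all listed genes. *Chga* was at 78.5, 52.1, 67.7 and 72.8 CPM in WT mice and 41.2, 32.6, 34.0 and 35.0 CPM in KO mice, a log2 fold change of -0.93 with an adjusted p of 0.0971 (edgeR). *Chgb* was at -0.91 with an adjusted p of 0.368 (edgeR). The genotypes did not overlap in either gene, both named for their small p, and over all genes 2.03% did not overlap. Of the 8 enteroendocrine products, 7 were lower and 1 higher, and *Pcsk1* (-0.49) and *Tph1* (-0.63) also passed the unadjusted threshold. Of the 8 tuft products, 7 were higher, with *Avil* at 0.78, *Dclk1* at 0.63 and *Trpm5* at 0.55 on the log2 scale, and of the 12 goblet products 10 were higher, with *Reg4* at 0.65 and *Clca1* at 0.64. At the unadjusted threshold 4 enteroendocrine products were lower, and 3 tuft and 2 goblet products higher, beside 3.67% of all genes in either direction (edgeR). One of the 12 goblet products, *Muc2*, had counts without DSS far below those after DSS, and whether its counts without DSS hold all of its reads is not known. After DSS, 11 of the 12 goblet products were lower in KO mice with 0 past the unadjusted threshold (edgeR). Of the 8 enteroendocrine products, 6 were lower and 2 higher after DSS, with *Chga* at -0.44. Of the 8 tuft products, 6 were higher and 2 lower after DSS, and *Cd24a*, at -0.62, was among the lower. At the unadjusted threshold 3 enteroendocrine products and 1 tuft product were lower after DSS and 0 of either list higher, beside 7.23% of all genes in either direction (edgeR). The absorptive transporter *Slc9a3*, at 0.65, and the collagen gene *Col3a1*, at 1.24, were the other listed genes with the smallest p after DSS. In their lists, 5 absorptive products were higher and 4 lower, and 3 fibroblast genes were higher and 3 lower. The crypt gene *Smoc2* was at -0.29 without DSS, where 5 crypt stem genes were lower and 2 higher.

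**Figure D4:**
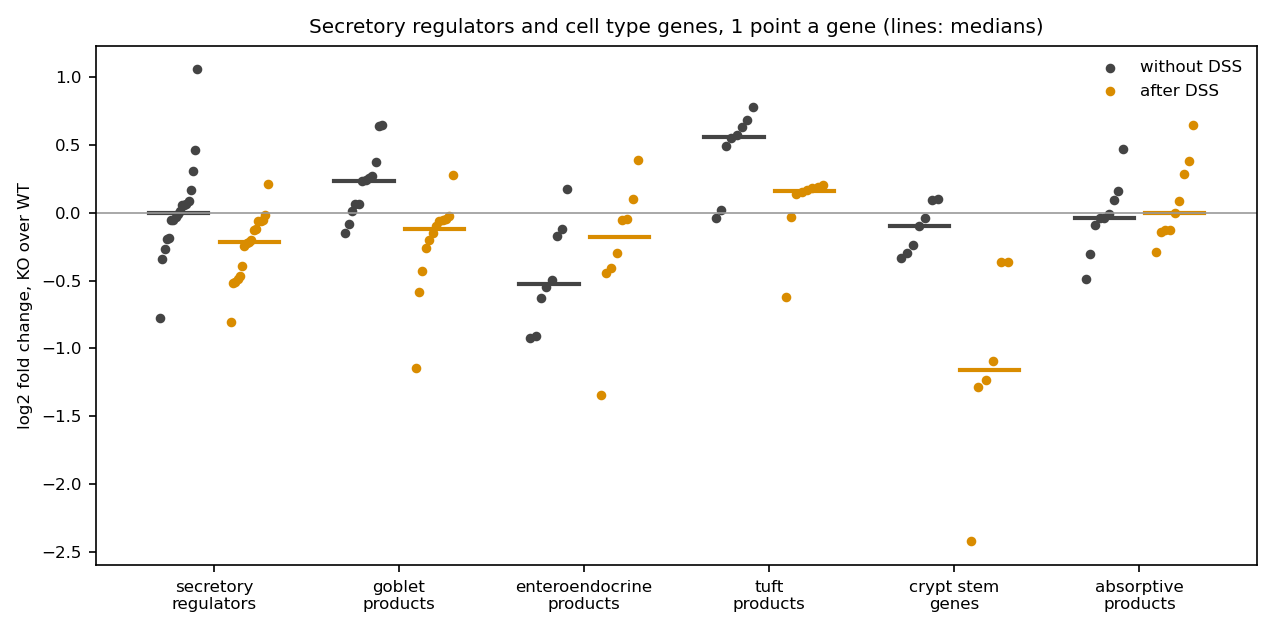
Log2 fold change of KO over WT mice for the listed secretory regulators and the products or marker genes of crypt cell types, 1 point a gene, with the median of each list as a line, without and after DSS. The secretory regulators lie around 0 without DSS and 16 of 17 lie below 0 after DSS, while enteroendocrine products lie mostly below 0 without DSS.

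Between the experiments, *Notch1*, *Dll4*, *Atoh1* and *Gfi1* fell after DSS in both genotypes, *Notch3* fell in WT mice and *Notch2*, *Dll1* and *Jag1* fell in KO mice. *Rbpj* and *Hes1* passed in neither. These contrasts come from the model of all 14 mice with a common scaling, in which the median log2 fold change of all genes was -0.02 in WT and -0.03 in KO mice. Of the 10 genes, 5 fell in WT mice and 7 in KO mice at an adjusted p under 0.05 (edgeR). Of all 16370 genes, 38.3% passed in WT mice, 18.1% in the lower direction, and 45.9% passed in KO mice, 22.7% in the lower direction. The median log2 fold change of the 10 genes was -0.65 in WT and -0.92 in KO mice.

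*Gfi1* fell by 1.27 ± 0.19 on the log2 scale (SE) in WT mice and by 1.16 ± 0.19 in KO mice, from 32.2 ± 8.75 to 13.4 ± 1.04 CPM and from 29.6 ± 2.82 to 13.2 ± 1.44 CPM (SD, commonly scaled). *Atoh1* fell by 0.78 ± 0.15 in WT mice, from 130 ± 8.35 to 75.7 ± 1.11 CPM. In KO mice *Atoh1* fell by 1.46 ± 0.15, from 159 ± 34.8 to 57.7 ± 9.88 CPM. The adjusted p values were 0.000169 and 0.000202 for *Gfi1* and 0.000977 and 4.77e-06 for *Atoh1* (edgeR). The interaction given above is the test of the difference between the *Atoh1* changes.

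*Notch1* fell in both genotypes, by 1.17 in WT mice and by 1.31 in KO mice on the log2 scale (adjusted p = 0.00144 and 0.000467, edgeR). *Dll4* fell by 0.76 and 0.88 (adjusted p = 0.00210 and 0.000508, edgeR). *Dll1* was at -0.51 in WT mice with an adjusted p of 0.0835 and fell by 0.95 in KO mice with an adjusted p of 0.00313 (edgeR). The interaction of *Dll1* did not pass, so these are not shown to differ. Without WT mouse 2, which had the lowest *Dll1* of the mice without DSS, the WT change passed with an adjusted p of 0.0309 (edgeR).

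The other calls rested on single mice. *Notch2* was at -0.54 in WT mice (adjusted p = 0.107) and fell by 0.69 in KO mice (adjusted p = 0.0390, edgeR). The KO call was lost without KO mouse 3 or 4 or, after DSS, KO mouse 2 or 3, with adjusted p of 0.0894 to 0.148, and the WT change passed without WT mouse 4 (0.0276). *Jag1* was at -0.45 in WT mice (adjusted p = 0.112) and fell by 0.61 in KO mice (adjusted p = 0.0314, edgeR). That call was lost without KO mouse 1, 2 or 3 or, after DSS, KO mouse 1 or 2, with adjusted p of 0.0522 to 0.179. *Notch3* fell by 2.02 in WT mice (adjusted p = 0.0270, edgeR), from 6 to 20 reads to 0 to 8 reads a mouse, and was at -1.22 in KO mice (adjusted p = 0.175). The WT call was lost without WT mouse 1 or 3 or, after DSS, WT mouse 2 or 3, with adjusted p of 0.0529 to 0.0981.

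*Rbpj* and *Hes1* did not pass in either genotype. *Rbpj* was at -0.08 in WT mice (-0.27 to 0.12) and at -0.00 in KO mice (-0.20 to 0.19). *Hes1* was at -0.14 in WT mice (-0.43 to 0.16) and at 0.06 in KO mice (-0.23 to 0.36). All 4 intervals crossed 0.

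**Figure D5:**
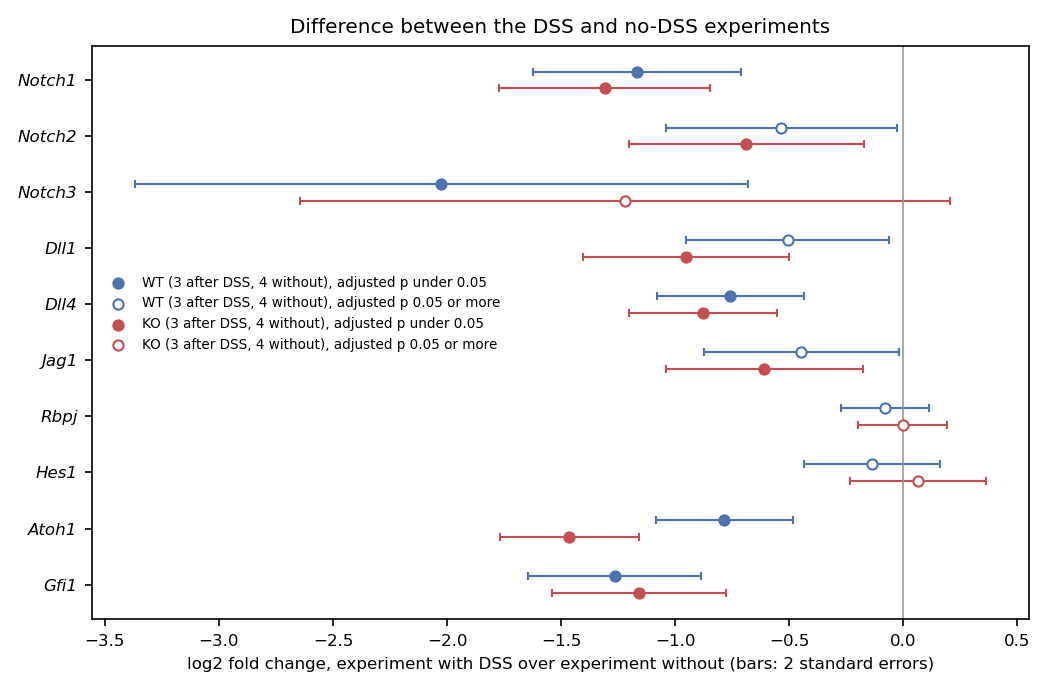
Log2 fold change of the mice after DSS over the mice without DSS for each gene in WT and in KO mice, with bars of 2 standard errors each side, filled points for an adjusted p under 0.05 and open points for others. *Gfi1*, *Atoh1*, *Notch1* and *Dll4* lie below 0 with filled points in both genotypes, and *Rbpj* and *Hes1* lie near 0.

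Of the other Notch pathway genes, 10 rose and 9 fell of 57 in WT mice and 13 rose and 14 fell in KO mice (edgeR, adjusted p under 0.05). Of all 16370 genes, 20.2% rose and 18.1% fell in WT mice, and 23.2% rose and 22.7% fell in KO mice. The counts of this list thus lay near the shares over all genes. Among the Notch pathway genes that passed in both genotypes, the γ-secretase subunits *Aph1a* and *Psenen* rose (by 0.59 and 0.72 on the log2 scale in WT mice). *Lfng*, which adds sugars to Notch receptors, *Mib1*, which drives ligand uptake, and the ligand *Jag2* fell, *Lfng* by 0.82 and 1.34 in WT and KO mice, *Mib1* by 0.58 and 0.64 and *Jag2* by 0.94 and 1.69. The length given for *Mib1* was 10937 bases without DSS and 10369 after DSS, and the part of this in its fall was not tested. The ligand-like gene *Dlk1* had 0 reads in all mice without DSS and after DSS ranged from 2.51 to 4.81 CPM across WT mice and from 0.159 to 2.54 CPM across KO mice. Of the 18 secretory regulators, 10 fell and 1 rose in WT mice and 15 fell and 1 rose in KO mice. *Sox4* fell the most by its p, with log2 fold changes of -2.60 and -3.22 in WT and KO mice, and the gene that rose was the differentiation factor *Klf4* (0.76 and 0.64). Of the 7 genes of crypt stem cells, 5 and 7 fell, and all 8 epithelial genes rose in both genotypes. The part of such shifts between cell types in the values of the 10 genes was not tested.

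Relations across mice were computed for 4 pairs among 5 of the 10 genes in each experiment. *Hes1* and *Atoh1* had Pearson's r of 0.0729 over the 8 mice without DSS (two-sided exact permutation p = 0.861, Spearman's rho 0.143, p = 0.752) and -0.115 over the 6 mice after DSS (exact p = 0.783, rho -0.143, p = 0.803). Without the 2 mice farthest from the median of *Hes1*, r was -0.0583 and -0.1001. Of these 8 relations among *Hes1*, *Atoh1*, *Gfi1*, *Dll1* and *Dll4*, 0 passed at an adjusted p under 0.05. The closest was *Atoh1* with *Dll1* after DSS (r = 0.842, exact p = 0.0347, adjusted p = 0.239, rho 0.6, exact p = 0.242), and it rests on KO mice 1 and 2, since r was -0.450 without them. *Dll1* with *Dll4* had r = 0.678 without DSS (exact p = 0.0598, adjusted p = 0.239, rho 0.476, exact p = 0.243), which became -0.4995 without WT mice 2 and 4. The remaining relations had exact p of 0.256 or more, with r from -0.362 to 0.547.

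For the 14 mice, with each experiment's mean removed, the genes whose levels were most like those of *Atoh1* among 8689 genes with at least 10 CPM were *Asph* (r = 0.945), *Stim2* (0.907) and the forkhead factor *Foxa2* (0.893). Those most like *Hes1* were *Gm16286* (0.804), the splicing factor *Bcas2* (0.803) and the mitochondrial enzyme *Echs1* (0.793). Those most like *Dll4* were *Bcas3* (0.858), the calcium channel subunit *Cacna2d2* (0.843) and the calcium release channel *Itpr1* (0.842). On the same scale *Hes1* with *Atoh1* was at 0.0123 and *Dll4* with *Atoh1* at 0.280. Genes of a mouse share its library, and these values are descriptions of 14 libraries.

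Since *Hes1* is known to repress *Atoh1* through sites in DNA, the 250 bases before the start of *Atoh1* are shown, at chr6:64728875-64729124 on the forward strand (RefSeq, GRCm38.p6). The capitals mark matches on either strand to CACGNG, a form of the letters that Hes proteins bind, which start 131, 95 and 41 bases before the start of the gene.
*Atoh1* upstream: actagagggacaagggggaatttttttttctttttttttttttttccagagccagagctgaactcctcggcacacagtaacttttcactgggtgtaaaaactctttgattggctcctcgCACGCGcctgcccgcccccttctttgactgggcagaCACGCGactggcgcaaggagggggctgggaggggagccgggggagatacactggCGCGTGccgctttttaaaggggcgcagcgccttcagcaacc
With a further match 16 bases after the start, *Atoh1* had 4 in a window of 300 bases, from 250 before to 50 after the start. Of 32851 such windows of 27025 genes, 27.5% held at least 1 match and 0.396% at least 4. Entries were found for 9 of the 10 genes, and not for *Hes1*. *Jag1* had 2 matches, *Notch2*, *Notch3* and *Dll4* had 1 each, each of the windows of *Dll1* had 1, and *Notch1*, *Rbpj* and *Gfi1* had 0. TGGGAA, part of the letters that *Rbpj* binds, matched in the windows of *Rbpj* itself and of 0 other members, beside 25.6% of all windows. CACNAG, another form bound by Hes proteins, matched in windows of *Notch1*, *Notch2*, *Notch3*, *Dll1*, *Dll4* and *Atoh1* and in 42.5% of all windows. A match is a description of the letters and was not linked here to any level.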

How the data were processed

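Total RNA was extracted with TRIzol and made into libraries with the NEBNext Ultra Directional kit, and sequencing was done by a commercial provider, per the labels and the paper. For each experiment the authors deposited 1 table of unnormalized read counts by gene. The submitters' processing notes name HISAT2 and DESeq2 with no version. The counting tool, the genome build and the use of strand are not given in the sources used here. Without stated strand use, reads of overlapping genes cannot be separated, which touches 7 of the 10 genes (*Jag1*, *Hes1* and *Atoh1* have no overlapping gene). Positions of genes are those of the tables and match GENCODE vM21 on GRCm38. The FPKM columns (14) and the authors' own comparison columns, which hold fold changes and p-values, were not used. A WT sample and a KO sample that the study excluded were not analysed here.

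Genes with low counts were removed with filterByExpr of edgeR 4.0.16 (R 4.3.3; minimum count 10, minimum total 15), counts were scaled by TMM, and genotypes were compared within each table by glmQLFit and glmQLFTest (robust) with Benjamini-Hochberg adjustment over all genes tested and a threshold of 0.05. The interaction and the contrasts of DSS used all 14 mice and the 54378 genes in both tables. The length of 9 of the 10 genes was the same in both (*Notch3* differed). Of the 181 listed genes beside these, 172 had the same length in both. Intervals are 2 standard errors each side. Exact permutation tests used log2(CPM + 0.5), and correlations used all pairings of log2 CPM values, computed with a prior count of 2 (scipy 1.17.1). The test was tried on simulated data before use. Within groups, no pair of libraries held the same counts within sampling noise. The paper describes its mice in general as littermates, and no litter is tied to a library. Each mouse is therefore a sample here, and p-values measure the spread between mice.

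The alternatives were DESeq2 1.42.0, RLE scaling, no filter, at least 10 counts in every mouse, all 14 mice in a single model, the replicate number as a block, centring on genotype means for correlations and each mouse left out. The fits without mitochondrial genes and the counts of secretory regulators under each alternative were added after seeing the data. The members and lists were chosen with earlier results of these data known, and *Kyat1* was taken off the corepressor list after values were seen, since it is no pathway gene. All 10 genes are named, as are, of the other lists, up to 12 genes a genotype comparison with an unadjusted p under 0.05 and the smallest p, and the 3 genes most like *Hes1*, *Atoh1* and *Dll4*. The genes named in the contrasts of DSS beside the 10, and *Muc2*, *Ascl2* and *Pecam1*, were chosen after their values were seen. Some genes of the lists are not reported here by name. Motifs were searched on both strands of RefSeq promoter windows, and miR-29 sites in GENCODE vM21 3′ UTRs.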

Additional observations from a re-analysis of the deposited data

Results flagged for a closer look

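In 42 pairs of a gene and a group without DSS, the highest and the lowest of the 4 mice were compared with the other mice, and 4 pairs held a mouse far from the rest, where chance gives about 1 in 20. *Gfi1* was at 20.6 CPM in WT mouse 4, with the other WT mice at 38.5 to 41.1 CPM. The tuft cell factor *Gfi1b* was at 1.13 CPM in WT mouse 2 and at 2.29 CPM in KO mouse 4, each above the other mice of its group. The prohormone convertase gene *Pcsk1* was at 35.1 CPM in KO mouse 3, above the other KO mice.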

How the results depend on the processing

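The counts of the 10 genes past the adjusted threshold were 0 between genotypes, without and after DSS, and 0 for the interaction under every alternative run. Over all genes, the 3 calls without DSS became 23 with DESeq2, 11 with no filter and 0 with at least 10 counts in every mouse, and 3 to 5 on leaving out a mouse (5 without WT mouse 2). The 2 calls after DSS became 59, 46 and 0 under the same settings, and 0 to 93 on leaving out a mouse (93 without KO mouse 3). The interaction went from 0 to 1 gene without KO mouse 3 after DSS, a range of 0 to 1. The cause was not tested, other than that the stricter filter leaves out *Lncpint* and *Gm27019*. With the replicate block the calls without DSS were 3, and *Notch2* turned to 0.0231 on the log2 scale. The correlations of same-numbered mice (-0.03, 0.15, -0.19 and -0.13) do not show the numbers as pairs. No block was run after DSS because those columns do not carry the numbers of the labels.

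Leaving out a mouse turned the sign of small genotype differences. Without DSS, *Notch1* ranged from -0.324 to 0.0248, *Notch2* from -0.213 to 0.219 and *Jag1* from -0.144 to 0.0870. After DSS, *Hes1* ranged from -0.130 to 0.0945, *Rbpj* from -0.0154 to 0.0948, *Gfi1* from -0.109 to 0.0465, *Dll4* from -0.115 to 0.144 and *Jag1* from -0.376 to 0.0109. For the interaction, *Notch1* ranged from -0.299 to 0.0333, *Notch2* from -0.385 to 0.0186, *Jag1* from -0.343 to 0.0516 and *Dll4* from -0.244 to 0.00667. Between experiments, *Hes1* in WT mice ranged from -0.243 to 0.00290 and *Rbpj* in KO mice from -0.0413 to 0.0493, and *Rbpj* in KO mice was at 0.00112 with DESeq2 and 0.000685 with RLE scaling. Centring on genotype means gave r of 0.830 for *Atoh1* with *Gfi1* and 0.927 for *Atoh1* with *Dll1* after DSS. Without KO mice 2 and 3 after DSS these were 0.551 and 0.268. Each had an adjusted permutation p of 0.0944. That p is not exact, since the pairings ran across both genotypes and centred values cannot be exchanged freely between them.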

Other observations

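The goblet cell mucin *Muc2*, chosen after its values were seen, ranged from 22.1 to 164 CPM across WT mice and from 43.8 to 160 CPM across KO mice without DSS, and from 5848 to 7992 CPM across WT mice and from 3549 to 7453 CPM across KO mice after DSS. The tables were scaled separately. *Muc2* rose by 6.57 on the log2 scale in WT mice and by 6.23 in KO mice. Of the other goblet products, *Reg4* fell by 2.57 in WT mice and fell by 4.35 in KO mice, *Clca1* was at -0.79 in WT mice and fell by 2.01 in KO mice, *Zg16* rose by 1.31 and 1.21, and *Tff3* rose by 1.04 and 0.93 (edgeR, adjusted p under 0.05 where a gene rose or fell). The length given for *Muc2* is the same in both tables. Whether its low counts without DSS are an error of counting was not tested, and DSS and the experiment cannot be told apart.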
